A study of Homo sapiens with 6 samples.

Results

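Amino acid transporters of the plasma membrane set how fast a cell takes up leucine, glutamine, serine, cystine and arginine. The genes described here are 8 such transporters chosen by name: SLC7A5, SLC3A2, SLC7A11, SLC7A1, SLC38A1, SLC38A2, SLC1A4 and SLC1A5. They are 8 of 60648 genes in the deposited count table, of which 19954 are annotated as protein-coding. The cells were A549, derived from a human lung carcinoma (non-small cell), and the genes were measured as input RNA (chemically fragmented total RNA) and as ribosome footprints, the RNA fragments that ribosomes shield from RNase I.

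Cells carried either a control shRNA (labelled shCtrl, genotype WT) or an shRNA against METTL16, an RNA methyltransferase (labelled shM16). How the shRNAs were delivered, and whether the cells were 1 clone or a pool, is not given in the sources used here. Cells stood for 2 h in amino acid starvation medium or in complete medium and all received the elongation inhibitor cycloheximide for 5 min. This gave 3 conditions, each with 1 input RNA library and 1 footprint library: the starved control, the starved METTL16 knockdown and that knockdown in complete medium. A control in complete medium was not analysed here.

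These transporters work in families. SLC7A5 (LAT1), SLC7A11 (xCT) and SLC7A1 (CAT1) belong to one family: LAT1 exchanges large neutral amino acids such as leucine, xCT imports cystine in exchange for glutamate, and CAT1 carries arginine and lysine. LAT1 and xCT are light chains that reach the cell surface bound to the heavy chain SLC3A2 (CD98hc, also called 4F2hc), while CAT1 works without it. SLC38A1 and SLC38A2 (SNAT1 and SNAT2) take up small neutral amino acids such as glutamine and alanine with sodium. SLC1A5 (ASCT2) and SLC1A4 (ASCT1) are sodium-dependent exchangers of small neutral amino acids, and glutamine is a substrate of ASCT2. When amino acids run short, the kinase GCN2 raises translation of the transcription factor ATF4, and most of these genes are known as ATF4 targets. SLC7A11 is also a target of NRF2, which is active in A549 because these cells carry a KEAP1 mutation.

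ATF4 with a C/EBP partner binds an element whose core was searched here as TGATGNAA on both strands, in RefSeq promoter windows (GRCh38.p14) that run from 250 bases before to 50 bases after an annotated start. These windows are shown because the members share regulation by amino acid supply. The 7 members with an entry, all but SLC7A11, had 13 windows, and 5 of these, 1 in each of 5 genes, held a match, against 3.62% of 35116 windows over all genes. The matches are in capitals below, read 5′ to 3′ along the gene's strand, in 30-base stretches.
SLC1A4: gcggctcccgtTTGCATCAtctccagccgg
SLC7A1: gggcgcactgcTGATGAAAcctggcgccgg
SLC38A1: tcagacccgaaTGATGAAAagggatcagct
SLC1A5: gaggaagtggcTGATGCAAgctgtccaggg
SLC3A2: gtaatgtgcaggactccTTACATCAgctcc
In SLC1A4 and SLC3A2 the element lies on the opposite strand. The stretches are chr2:64989381-64989410 on the plus strand for SLC1A4, chr13:29595663-29595692 on the minus strand for SLC7A1, chr12:46266502-46266531 on the minus strand for SLC38A1, chr19:46784893-46784922 on the minus strand for SLC1A5 and chr11:62881719-62881748 on the plus strand for SLC3A2. Counted from the annotated start as base 0, the matches begin at base -7 in SLC1A4, 7 in SLC7A1, -4 in SLC38A1, -97 in SLC1A5 and 37 in SLC3A2. The windows of SLC7A5 and SLC38A2 held no match to these letters. The core of the antioxidant response element, TGACNNNGC, matched 4 of the 13 windows, 1 each in SLC3A2, SLC7A1, SLC7A5 and SLC1A5, against 13.3% of all windows, and no match of one motif overlapped one of the other. A match describes letters in a window and is no evidence of binding.

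The libraries held 465303 to 775676 counts in input RNA and 518955 to 781831 in footprints, and nuclear protein-coding genes took 77.02 to 82.6% of the former and 64.4 to 79.0% of the latter. In the order control starved, knockdown starved, knockdown complete, used throughout, METTL16 had 44, 9 and 19 input reads and 60, 3 and 7 footprint reads, so both knockdown conditions lay below the starved control; shRNA and medium differ together between that control and the complete medium. Of 11 markers of A549 and lung epithelium 10 or 11 had counts in every library, with a summed level of 11378 to 13257 CPM (counts scaled to a common library total) in input RNA and 17009 to 21027 in footprints. The mature alveolar and airway markers, the endothelial markers, the leukocyte markers PTPRC, CD3E and LYZ and the fibroblast markers COL1A2 and PDGFRB had at most 2 counts as a group or were at 0. The fibroblast list summed to 1 to 14 counts and the leukocyte list, through CD14 alone, to 3 to 31.

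With 1 library per group there is no spread between replicates and no p-value. The 95% intervals in parentheses cover counting error only and treat each read as independent. Amplified reads that carry no molecular identifier may copy one molecule, in which case the intervals are too narrow even for counting error. Levels are CPM, scaled by TMM factors, which set the typical gene level between libraries, and differences are log2 ratios of these levels, so higher and lower are relative to the typical gene. Differences of 2-fold or more whose interval excludes 0 are called. The count minimum, an average of 30 or more across the 3 libraries of an assay, was met by 7 of the 8 members and not by SLC1A4. In bulk RNA a lower level per cell and fewer cells with the transcript cannot be told apart.

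SLC7A5 was the most abundant transporter mRNA and SLC3A2 the transporter with the most footprints. Together the 8 genes took 1.06% of the nuclear protein-coding counts of input RNA in the starved control (exact Clopper-Pearson interval 1.03 to 1.09%). The share was 0.822% after starvation of the knockdown (0.793 to 0.852%) and 1.37% with complete medium (1.34 to 1.40%). Of footprints they took 0.996%, 1.04% and 1.20%. In input RNA the shares are ordered with complete medium highest and the starved knockdown lowest, and their intervals do not overlap. SLC7A5 alone made up 60.7%, 49.9% and 56.7% of the 8 genes' input reads but 32.7%, 28.9% and 25.8% of their footprints, where SLC3A2 made up 38.1%, 41.4% and 36.1%.

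**Figure D1:**
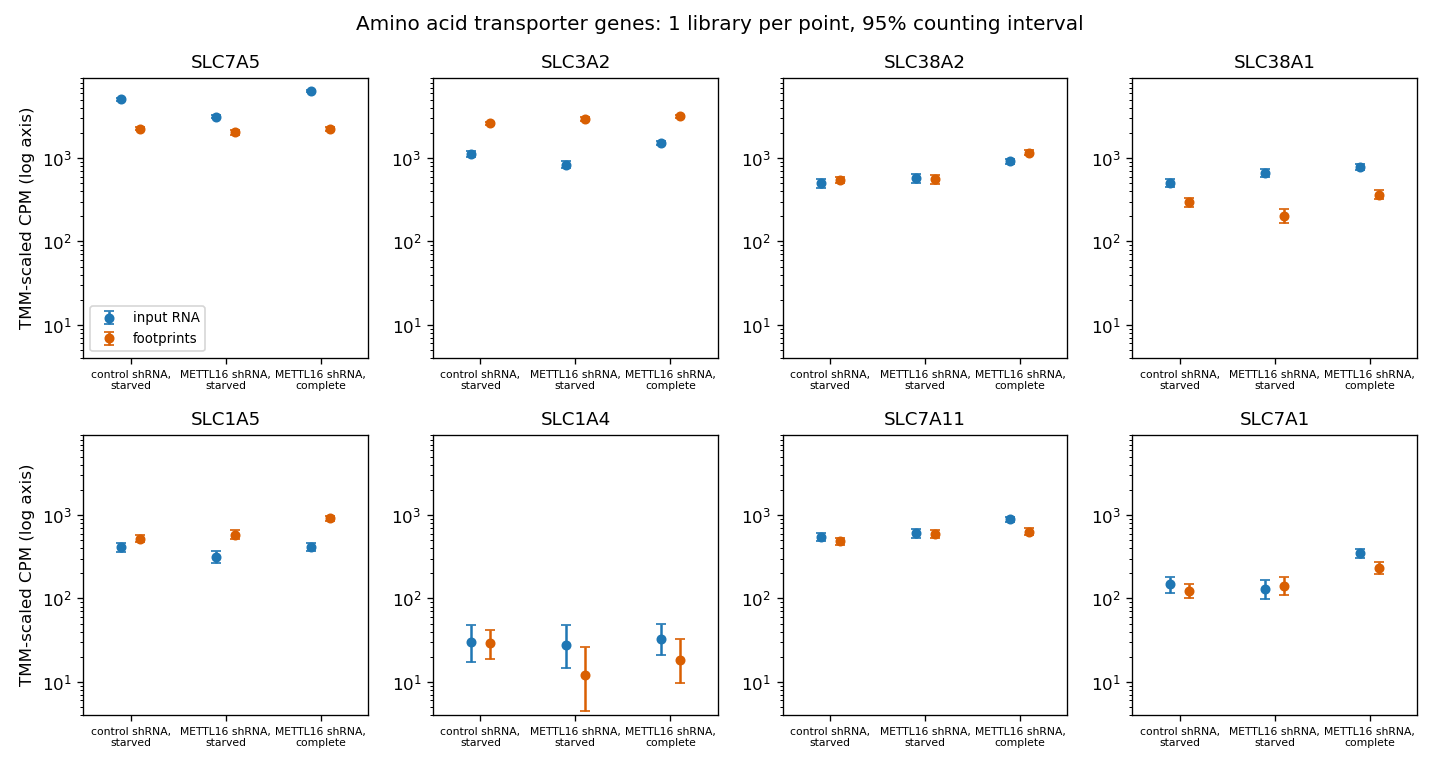
TMM-scaled CPM (log axis) of the 8 transporter genes in input RNA (blue) and footprints (orange), 1 library per point, with exact Poisson 95% intervals. SLC7A5 sits above its footprints in all 3 conditions and SLC3A2 below them, and SLC1A4 has the widest intervals.

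Divided by the gene length in the count table, the heterodimer of SLC7A5 and SLC3A2 had unequal mRNA levels and nearly equal footprint levels. SLC7A5 (ENSG00000103257.9, chromosome 16, 87830023 to 87869507) had input levels of 1586, 736 and 1615 TPM in the authors' deposited table, and SLC3A2 (ENSG00000168003.18, chromosome 11, 62856109 to 62888860) 263, 146 and 285 TPM. In footprints SLC7A5 stood at 390, 179 and 233 TPM and SLC3A2 at 339, 191 and 243 TPM. Within each library SLC7A5 therefore exceeded SLC3A2 in input RNA by a ratio of 6.03 (5.53 to 6.58), 5.05 (4.51 to 5.66) and 5.67 (5.31 to 6.06). In footprints the ratio was 1.15 (1.08 to 1.22), 0.938 (0.865 to 1.02) and 0.959 (0.896 to 1.03).

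Adding the other light chains that SLC3A2 is known to carry (SLC7A6, SLC7A7, SLC7A8, SLC7A10 and SLC7A11) raised the ratio of light chains to SLC3A2. With the summed light chains the ratio was 6.42, 5.605 and 6.13 in input RNA and 1.31, 1.10 and 1.13 in footprints. In footprints of the knockdown it thus moved from 0.938 and 0.959 to 1.10 and 1.13. SLC7A5 made up 85.1 to 94.0% of the sum. These levels divide by the gene length in the count table, 4764 bases for SLC7A5 and 6392 for SLC3A2, which counts untranslated exons that carry few footprints. The length of the transcripts present in these cells was not determined, and the ratios in both assays depend on it. A ratio over coding length alone was not computed here. The pseudogenes SLC7A5P1 and SLC7A5P2, partial copies of SLC7A5, are listed at 0 in all 6 libraries, and how the counting treated reads that match both them and SLC7A5 is not given in the sources used here.

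**Figure D2:**
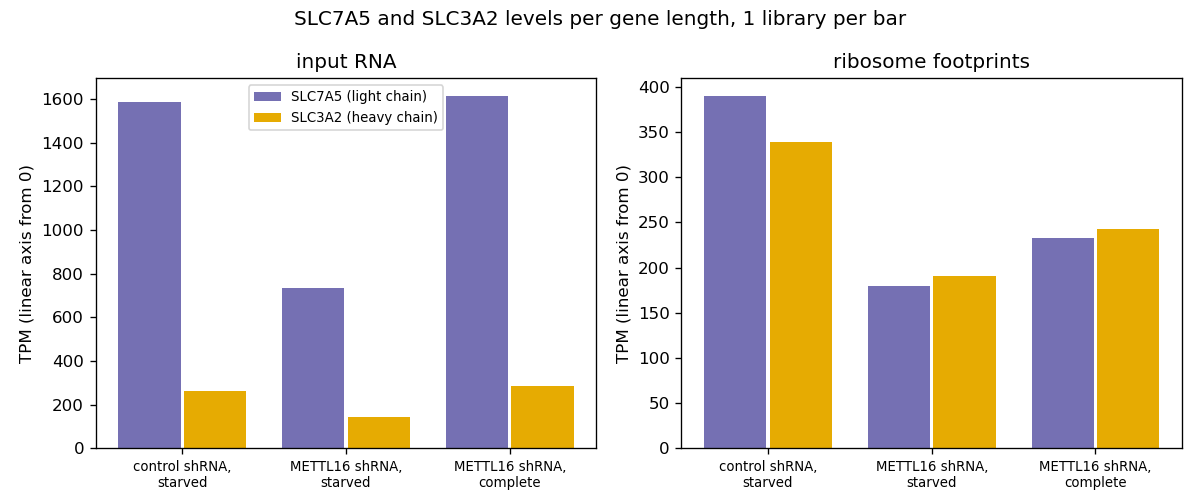
TPM of SLC7A5 (purple) and SLC3A2 (yellow) in input RNA (left) and footprints (right), linear axes from 0, 1 library per bar. SLC7A5 is 5.05 to 6.03 times SLC3A2 in input RNA and 0.938 to 1.15 times in footprints, and bars are to be compared within a library. These ratios depend on the gene lengths used.

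Translation efficiency divides a gene's footprint level by its RNA level, so total gene length cancels. The share of a transcript that is coding does not cancel, since input reads also cover untranslated exons, so a gene's place among other genes reflects that share as well as translation. Its log2 level is given relative to the median of 2866 genes. SLC3A2 had one of the higher values among these genes, at 1.24 (1.12 to 1.37), 1.88 (1.72 to 2.04) and 1.18 (1.08 to 1.29). Of the 2866 genes, 137, 21 and 99 had a higher value. SLC7A5 was below the median, at -1.14 (-1.23 to -1.06), -0.55 (-0.66 to -0.43) and -1.38 (-1.47 to -1.30), with 306, 798 and 157 genes below it. The partners thus differed in the same direction in all 3 conditions.

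SLC1A5 (ENSG00000105281.12, chromosome 19, 46774883 to 46788594) was also above the median, at 0.36 (0.14 to 0.59), 0.98 (0.69 to 1.26) and 1.25 (1.05 to 1.45). SLC38A2 (ENSG00000134294.14, chromosome 12, 46358188 to 46372773) lay at 0.15, 0.03 and 0.49, with an interval that excludes 0 in complete medium (0.34 to 0.64). Its relative SLC38A1 (ENSG00000111371.16, chromosome 12, 46183063 to 46269043) lay below the median throughout, at -0.74 (-0.99 to -0.50), -1.65 (-1.97 to -1.32) and -0.98 (-1.20 to -0.76). SLC7A11 (ENSG00000151012.13, chromosome 4, 138164097 to 138242349) stood at -0.15, 0.05 and -0.35 and SLC7A1 (ENSG00000139514.13, chromosome 13, 29509414 to 29595688) at -0.25, 0.22 and -0.45. SLC1A4 (ENSG00000115902.11, chromosome 2, 64988479 to 65023865) had 6 to 26 footprint reads and values of -0.04, -1.05 and -0.67 whose intervals all hold 0.

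In the starved control the order ran SLC3A2, SLC1A5, SLC38A2, SLC1A4, SLC7A11, SLC7A1, SLC38A1, SLC7A5, and adjacent genes from SLC1A5 to SLC7A1 did not differ beyond counting error. Only adjacent genes were compared. The levels of SLC1A5 (0.14 to 0.59) and SLC7A11 (-0.36 to 0.06) have intervals that do not overlap. In the starved knockdown SLC3A2 and SLC1A5 were apart from each other by 0.90 (0.57 to 1.23) and from the rest, while SLC7A1, SLC7A11 and SLC38A2 could not be ordered. In complete medium SLC1A5 and SLC3A2 could not be ordered, with a difference of 0.07 (-0.16 to 0.30), and SLC38A2 followed 0.70 lower (0.51 to 0.88). SLC7A5 was the lowest member in the starved control and in complete medium, where it lay 0.40 (0.14 to 0.65) and 0.40 (0.16 to 0.63) below SLC38A1.

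**Figure D3:**
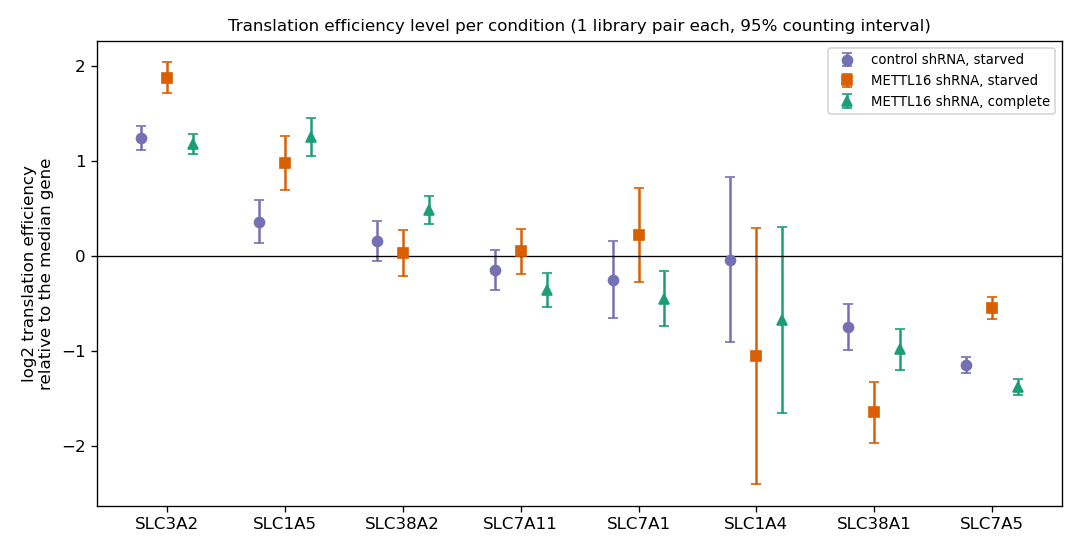
Log2 translation efficiency of the 8 genes relative to the median gene, by condition, 1 pair of libraries per point, with 95% counting intervals. SLC3A2 lies above 1 in all 3 conditions, and SLC7A5 and SLC38A1 lie below 0 in all 3.

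Starved against complete medium, both in the METTL16 knockdown, asks what a short amino acid shortage does to these genes. Transporter mRNA was lower in starved cells: all 7 measured members lay below 0 in input RNA with an interval that excludes 0, where 22.9% of all genes did the same and 13.5% lay above 0. With total counts or nuclear protein-coding totals 6 of 7 did (18.3% and 18.0% of all genes), as SLC38A1 then stood at -0.13 or -0.12 with an interval that holds 0. SLC7A1 (CAT1) was called lower, and SLC7A5 (LAT1) too under the main scaling. Footprints were lower as well in SLC38A2, SLC38A1, SLC1A5 and SLC7A1, while those of SLC7A5, SLC3A2 and SLC7A11 differed by only -0.14, -0.11 and -0.09. The translation efficiency of SLC7A5, SLC3A2, SLC7A11 and SLC7A1 was higher in starved cells, short of 2-fold.

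SLC7A1 had 84, 60 and 254 input reads, or 148, 128 and 349 CPM, which sets the complete medium apart from both starved libraries. The starved knockdown was 2.71-fold lower than the complete medium, at -1.44 (-1.88 to -1.04), and only 45 of 3876 genes had a lower value. Its footprints, 122, 141 and 233 CPM, were lower by less, at -0.71 (-1.15 to -0.30).

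SLC7A5 had 2864, 1471 and 4669 input reads, or 5030, 3139 and 6420 CPM. Under TMM scaling the 3 libraries differ from each other, with complete medium highest. In TPM the starved control and complete medium were closer, at 1586 and 1615, and shRNA and medium differ together between them. The starved knockdown was 2.04-fold lower than complete medium, at -1.03 (-1.12 to -0.95), which lies at the edge of the 2-fold call. In this comparison 2.12% of genes were called higher and 5.52% lower. SLC7A5 falls short of the call at -0.93 with total counts and at -0.997 with DESeq2 size factors. Its footprints stood at 2234, 2033 and 2248 CPM, a difference of -0.14 (-0.26 to -0.03). The translation efficiency of SLC7A5 was accordingly higher by 0.89 (0.74 to 1.03), short of 2-fold.

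SLC3A2, its heavy chain, had 1119, 834 and 1519 CPM in input RNA and 2604, 2909 and 3146 CPM in footprints. The starved knockdown stood at -0.86 in RNA (-1.03 to -0.70) and at -0.11 in footprints (-0.21 to -0.02), with a translation efficiency higher by 0.75 (0.56 to 0.94). The changes of SLC7A5 and SLC3A2, set directly against each other, differed by -0.17 in RNA (-0.35 to 0.02), -0.03 in footprints (-0.18 to 0.12) and 0.14 in translation efficiency (-0.10 to 0.38). A difference between the heterodimer partners was not detectable at this depth. This is 1 of 36 such differences between members, for 6 pairs chosen after their values were seen.

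SLC7A11, the cystine light chain, had 548, 604 and 887 CPM in input RNA and 486, 592 and 633 CPM in footprints. Here too complete medium was highest in RNA, at -0.55 for starved over complete (-0.76 to -0.35), while footprints stood at -0.09 (-0.32 to 0.12), or 0.007 when scaled by nuclear protein-coding totals. Translation efficiency was higher by 0.46 (0.16 to 0.75). The antisense gene SLC7A11-AS1 had at most 7 counts in any library.

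SLC38A2 (SNAT2) was the member with the fewest footprints in starved relative to complete medium. Its footprint counts were 491, 274 and 754, or 545, 554 and 1163 CPM. Under TMM scaling the starved libraries were thus alike and the complete medium stood apart. With total counts the starved knockdown lay below the starved control, at -0.25 with an interval below 0. Starved over complete medium was -1.07 (-1.28 to -0.87), called lower as 7.34% of genes were (4.78% higher). It was -0.97 and not called with nuclear protein-coding totals. Input RNA at 499, 572 and 910 CPM gave -0.67 (-0.88 to -0.46), and translation efficiency was lower by -0.40 (-0.69 to -0.11).

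SLC38A1 (SNAT1) had 502, 670 and 789 CPM in input RNA and 294, 202 and 364 CPM in footprints. Starved over complete was -0.24 in RNA (-0.44 to -0.04), -0.84 in footprints (-1.20 to -0.51) and -0.61 in translation efficiency (-1.001 to -0.22). Its RNA changed less than that of SLC38A2 by 0.43 (0.15 to 0.72), and in footprints the pair differed by 0.22 (-0.17 to 0.62), within counting error.

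SLC1A5 (ASCT2) had 411, 312 and 418 CPM in input RNA and 520, 582 and 909 CPM in footprints. It stood at -0.42 in RNA (-0.72 to -0.13), -0.64 in footprints (-0.85 to -0.44) and -0.22 in translation efficiency (-0.57 to 0.13). SLC1A4 (ASCT1), with 17, 13 and 24 input reads and 26, 6 and 12 footprint reads, gave -0.23 (-1.35 to 0.78) and -0.55 (-2.31 to 0.92), too few counts to tell a direction.

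The 7 measured members had a median of -0.67 in RNA, against -0.08 over all genes. Of them 2 were called lower and 0 higher, where 5.52% and 2.12% of all genes were, and SLC7A5 lost its call under other scalings. In footprints the median was -0.64 against -0.03, with 1 called lower and 0 higher, where 7.34% and 4.78% of all genes were. In that measure 6 of 7 lay below 0 with an interval that excludes 0 as did 21% of all genes (16% above 0). With total counts or nuclear protein-coding totals 4 did, SLC38A2, SLC38A1, SLC1A5 and SLC7A1, against 18.4% and 16.8% of all genes, and those of SLC7A5 and SLC3A2 then held 0. In translation efficiency the median was 0.46 against 0.11, with 0 called where 8.13% of genes were called higher and 8.72% lower. There 4 of 7 (SLC7A5, SLC3A2, SLC7A11 and SLC7A1) had an interval above 0, as 19.9% of all genes did, and 2 (SLC38A2 and SLC38A1) one below 0, as did 14.9%. The members that hold the TGATGNAA core shown above and were measured, SLC3A2, SLC38A1, SLC1A5 and SLC7A1, ranged from -1.44 to -0.24 in RNA, and SLC7A5 and SLC38A2, without a match, stood at -1.03 and -0.67.

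**Figure D4:**
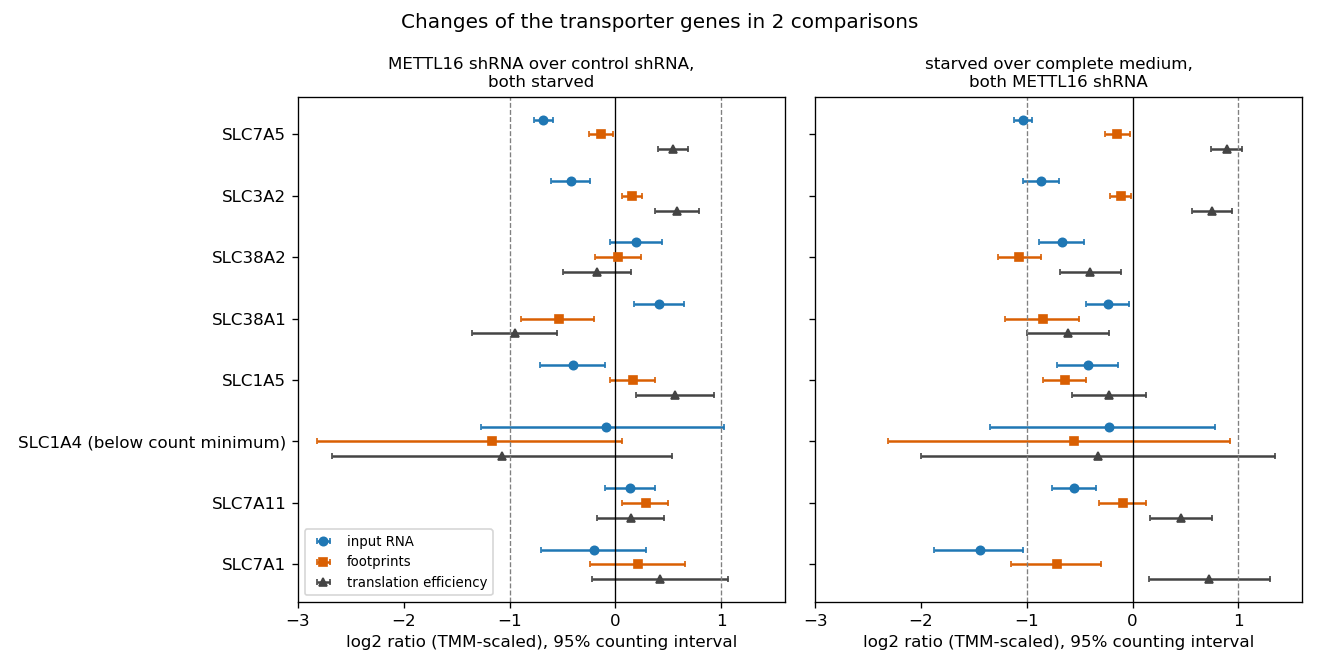
Log2 ratios of the 8 genes for METTL16 shRNA over control shRNA, both starved (left), and starved over complete medium, both METTL16 shRNA (right), with 95% counting intervals; dashed lines mark 2-fold. On the right, under TMM scaling, every input RNA point except that of SLC1A4 has an interval below 0, and SLC7A5 and SLC3A2 have translation efficiency at 0.89 and 0.75.

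Lower RNA in starved cells was common among SLC genes, while other ATF4 targets had a median near 0. Of 332 further genes whose symbol starts with SLC, 73 were measured in RNA, 61 of them below 0 (55.9% of all genes were), with a median of -0.57. Of these 10 were called lower and 0 higher, where 5.52% and 2.12% of all genes were (SLC12A4 lowest at -2.03, SLC25A46 highest at 0.76). With total counts SLC12A7, SLC17A5, SLC23A2 and SLC37A3 lost that call. The footprint median of these SLC genes was -0.02 over 60 genes, with SLC39A8 highest at 1.67 and SLC12A2 lowest at -1.14. There 2 were called higher and 5 lower (4.78% and 7.34% of all genes), and SLC25A5 lost its call with total counts. Their translation efficiency median was 0.44 over 56 genes, from SLC35A4 at 2.03 to SLC25A5 at -1.45. Of the 56, 9 were called higher and 1 lower (8.13% and 8.72% of all genes), and SLC5A6, SLC25A39 and SLC35B1 lost the call with DESeq2 size factors. The members' RNA and translation efficiency medians are thus close to those of the other SLC genes, and their footprint median lies below it. No test of that difference was made.

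Among 29 other plasma membrane amino acid transporters 3 passed the count minimum: SLC6A6, the taurine transporter, SLC6A15, a neutral amino acid transporter, and SLC7A6, a light chain of SLC3A2. SLC6A6 was lowest in RNA at -0.98 (-1.23 to -0.73), and SLC6A15 was highest at 0.20 (-0.35 to 0.74) but lowest in footprints, called at -1.05 (-1.61 to -0.53) but not with total counts (-0.98) or nuclear protein-coding totals (-0.95), and in translation efficiency, called at -1.25 (-1.98 to -0.52). SLC7A6 was called higher in translation efficiency at 1.11 (0.11 to 2.12), with footprints at 0.25. Of 12 lysosomal and other intracellular transporters 4 were measured in RNA, and SLC38A10 and MFSD12, a lysosomal cysteine importer, were called lower (MFSD12 at -1.24, and SLC38A10 at -1.01, or -0.90 and not called with total counts), with SLC36A4 highest at 0.25. In footprints 0 of 4 were called, from SLC38A9, the lysosomal arginine sensor, at -0.57 to SLC38A10 at -0.12. In translation efficiency MFSD12 was called higher at 1.04 (0.98 and not called with DESeq2 size factors) and SLC15A4 was lowest at -0.23.

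Mitochondrial amino acid carriers had 3 of 12 measured and 0 called in any measure, with RNA from SLC25A13 at -0.56 to SLC25A44 at -0.21. SFXN1, a serine carrier, was highest in footprints at 0.57 (0.01 to 1.15) and in translation efficiency at 0.98, and SLC25A13, an aspartate and glutamate carrier, was lowest at -0.24 and 0.32. ATF4 targets that are not transporters had an RNA median of 0.06 over 14 genes, with TRIB3 highest at 0.53 and HERPUD1 lowest and called at -1.24. Their footprint median was 0.10, with CEBPB called higher at 1.18 (0.64 to 1.75) and PSAT1 lowest at -0.73. Their translation efficiency median was 0.19 over 13 genes, with HERPUD1 at 1.73 and PYCR1 at 1.05 called higher, the latter in the main scaling alone, and PSAT1 called lower at -1.10. ATF4 itself had 113, 79 and 117 input reads and 34, 33 and 28 footprint reads, and stood at 0.07 in RNA (-0.36 to 0.49) and 0.62 in footprints (-0.14 to 1.41).

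METTL16 knockdown against control, both starved, compares these genes during starvation between cells with the METTL16 shRNA and cells with the control shRNA. Whether a difference comes from the loss of METTL16 or from another difference between these cells was not tested. The starved knockdown libraries serve both comparisons, so their results are not independent. In this comparison 0 of 7 measured members were called in any measure, while 4.31% of genes were called higher and 5.01% lower in RNA, 3.35% and 3.96% in footprints and 4.54% and 5.97% in translation efficiency. Smaller differences lay beyond counting error in both directions: SLC7A5, SLC3A2 and SLC1A5 had less RNA, SLC38A1 more RNA but fewer footprints.

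In RNA the interval lay below 0 in 3 of 7 members, against 16.7% of all genes, and above 0 in 1, against 14.7%. SLC7A5 was 1.602-fold lower, at -0.68 (-0.77 to -0.59), SLC3A2 stood at -0.42 (-0.61 to -0.24) and SLC1A5 at -0.40 (-0.71 to -0.10), while SLC38A1 stood at 0.42 (0.18 to 0.65). The change of SLC7A5 lay below that of SLC3A2 by -0.26 (-0.46 to -0.05) and below that of SLC7A11 by -0.82 (-1.07 to -0.57). SLC38A2 at 0.20 (-0.05 to 0.44), SLC7A11 at 0.14 (-0.10 to 0.38) and SLC7A1 at -0.20 (-0.71 to 0.29) did not differ beyond counting error.

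In footprints SLC38A1 stood at -0.54 (-0.89 to -0.20), from 265 against 100 reads, and SLC7A5 at -0.14 (-0.25 to -0.03). SLC7A11 at 0.28 (0.07 to 0.50) and SLC3A2 at 0.16 (0.06 to 0.25) had intervals above 0, as 13.4% of genes did, and 17.6% had one below. Nuclear protein-coding genes took 79.0% of footprint counts in the control and 64.4% in the knockdown, and the part of this difference in these values was not tested. With total counts, which shift the median of all genes by -0.273, SLC3A2 turns to -0.11, SLC38A2 from 0.02 to -0.25, SLC1A5 from 0.16 to -0.11 and SLC7A1 from 0.22 to -0.06, and SLC7A11 stands at 0.01. With that scaling 4 of 7 members (SLC3A2, SLC38A2, SLC38A1 and SLC7A5) had an interval below 0, as 37.4% of all genes did, and 0 had one above. The change in footprints of SLC38A1 differed from that of its relative SLC38A2 by -0.56 (-0.95 to -0.17), a difference in which the library scaling cancels. SLC1A4, below the count minimum, had 26 footprint reads in the control and 6 in the knockdown, at -1.16 (-2.82 to 0.06). Its change differed from that of SLC1A5 by -1.33 (-2.58 to -0.07), an interval that is approximate at 6 reads. It is among the 36 differences for pairs chosen after their values were seen, and no direction is drawn from it.

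In translation efficiency SLC38A1 was lower at -0.95 (-1.36 to -0.55), just short of 2-fold, with 206 of 2866 genes below it, and it is called at -1.15 with total counts. It differed from SLC38A2, at -0.17 (-0.50 to 0.15), by -0.78 (-1.30 to -0.26), or by -0.35 (-0.83 to 0.14), within counting error, when the knockdown's input library is the one from complete medium. SLC3A2 at 0.58 (0.38 to 0.79), SLC1A5 at 0.56 (0.20 to 0.93) and SLC7A5 at 0.54 (0.40 to 0.69) were higher with intervals above 0, as 11.8% of genes were. With total counts SLC1A5 stood at 0.36 with an interval that holds 0, SLC7A5 at 0.34 and SLC3A2 at 0.38 with intervals above 0 (5.69% of genes), and SLC38A2 joined SLC38A1 below 0 at -0.37 (23.6% of genes). In the main scaling 13.6% of genes had an interval below 0. The heterodimer partners differed by -0.04 (-0.29 to 0.21). When the starved knockdown's input library is replaced by the one from complete medium, SLC7A5 turns to -0.49, SLC3A2 to -0.28, SLC7A11 from 0.14 to -0.41 and SLC7A1 from 0.42 (-0.23 to 1.06) to -1.02, while SLC38A2 moves from -0.17 to -0.84, SLC38A1 stands at -1.19 and SLC1A5 at 0.14. With that library 6 of 7 members, all but SLC1A5, had an interval below 0, as 22.2% of all genes did. The replacement adds each gene's RNA difference, starved over complete medium, to its translation efficiency value. It therefore restates that RNA comparison and is no separate check of the values above.

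The members' medians were -0.20 in RNA, 0.16 in footprints (-0.11 with total counts) and 0.42 in translation efficiency, against -0.01, -0.07 and -0.03 over all genes. Those of the other SLC genes were -0.02, 0.08 and 0.30. Of 73 such genes measured in RNA, 4 were called higher and 5 lower (4.31% and 5.01% of all genes). In footprints 5 and 2 of 60 SLC genes were called (3.35% and 3.96% of all genes). In translation efficiency 3 and 7 of 56 SLC genes were (4.54% and 5.97% of all genes). The extremes of these SLC genes in RNA were SLC38A6 at 1.87 and SLC19A1 at -1.93. In footprints they were SLC27A2 at 1.24 (0.97 with total counts, where all 5 higher footprint calls were lost) and SLC16A6 at -1.99. The lowest in translation efficiency was SLC4A7 at -2.01, and SLC38A6 was called lower there at -1.56. SLC38A6 is of the same family as SLC38A1 and SLC38A2 but was not in the lists of amino acid transporters, so it is counted here.

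Among the other plasma membrane amino acid transporters listed, SLC6A15 was called higher in RNA at 1.04 (0.37 to 1.75), with SLC7A6 lowest at -0.56. With total counts SLC6A15 stood at 0.96 and was not called. In footprints and translation efficiency 0 of 3 were called. There SLC6A6 was highest in footprints at 0.44 and SLC7A6 lowest at -0.22, and in translation efficiency SLC7A6 was highest at 0.34 and SLC6A15 lowest at -0.74. Of the intracellular transporters SLC36A4 was called higher in RNA at 1.09 (0.23 to 2.03), and SLC38A10, at -1.33 (-1.96 to -0.77), and MFSD12 lower. In footprints 0 of 4 were called, from SLC38A10 at -0.96 to SLC38A9 at 0.57, and in translation efficiency MFSD12 was called higher at 1.39 (0.15 with the complete-medium input) and SLC15A4 was lowest at -0.80. SLC25A44, a mitochondrial carrier of branched-chain amino acids, was called lower in footprints at -1.05 (-2.01 to -0.25), or -0.98 and not called with TMM over genes past the minimum, and in translation efficiency at -1.27. SFXN1 was highest in both, at -0.18 and 0.06, and in RNA SLC25A13 was highest at 0.23 and SFXN1 lowest at -0.24.

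The non-transporter ATF4 targets had medians of -0.14, 0.09 and 0.35 in RNA, footprints and translation efficiency. Of 14 measured in RNA, DDIT4 was called higher at 1.14 and PYCR1 lower at -1.28 (4.31% and 5.01% of all genes). In footprints 3 of 14 were called higher and 0 lower (3.35% and 3.96% of all genes). These were DDIT4 at 1.07, VLDLR at 1.06 and PSPH at 1.01, and none was called with total counts (DDIT4 at 0.80). In translation efficiency 3 of 13 were called higher and 0 lower (4.54% and 5.97% of all genes). These were PYCR1 at 1.48, HERPUD1 at 1.24 and PSPH at 1.19. PSPH stood at 0.99 and was not called with total counts, and HERPUD1 stood at -0.0004 with the complete-medium input. PSAT1 was lowest in footprints at -0.997 and in translation efficiency at -0.80, and ATF4 was called higher in translation efficiency at 1.05 (0.25 to 1.86), from 34 and 33 footprint reads, but stands at 0.85 and is not called with total counts.

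The pattern of a member over the 6 libraries was set against 2832 other protein-coding genes by Euclidean distance of log2 levels centred within each assay. The nearest gene was BSG for SLC7A5, at a distance of 0.112, MGAT1 for SLC3A2 at 0.101, FKBP10 for SLC38A2 at 0.174, SLC41A2 for SLC38A1 at 0.122, MGAT5B for SLC1A5 at 0.0728, SUN2 for SLC7A11 at 0.116 and CELSR1 for SLC7A1 at 0.198. No member was the nearest gene of another.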

How the data were processed

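Input RNA and ribosome footprints of A549 cells were measured in 3 conditions, with 1 library each, so 6 libraries in all. The authors deposited raw read counts per gene with a gene length in bases; per the submitters' processing notes, cutadapt 2.8, Bowtie2 2.2.5, STAR 2.7.5c, featureCounts 2.0.1 and the genome GRCh38 were used, with parameters not given in the sources used here. The authors also deposited TPM values and their ratio, footprint over input, as translation efficiency, in a table limited to an input TPM above 1. Deposited TPM equalled count over length, scaled to the common TPM total, for 100% of the genes compared (tolerance 0.0001). A broken record of 3 lines in the count table was left out.

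Counts were scaled with TMM factors over all genes (edgeR 4.0.16, R 4.3.3), separately for each assay, and compared as log2 ratios with a pseudocount of 0.5, in Python 3.11.15. RNA and footprint ratios have exact conditional binomial 95% intervals, and translation efficiency and differences between genes have Poisson intervals by the delta method. With 1 library per group there were no residual degrees of freedom for a test. The floor of 3 counts was 3.33 to 6.40 CPM. The scripts were tested on simulated counts with 200 changed genes.

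Alternatives were total counts, nuclear protein-coding totals, DESeq2 1.42.0 size factors, a count minimum of 10 or none, a pseudocount of 1, protein-coding genes only and another input library. TMM over genes past the minimum was added after the data were seen. The members and the gene lists were chosen with earlier results of these data known. Named genes were the members, METTL16, ATF4, the highest and lowest measured gene of each list, and the nearest gene to each member. 1 gene that this rule names is not reported here. Other list genes named because they were called were chosen after their values were seen. Chromosome coordinates are RefSeq's, GRCh38.p14.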

Additional observations from a re-analysis of the deposited data

How the results depend on the processing

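Of 343 values of single members under the alternatives, 322 kept their call and stayed within the interval of the value reported. A count minimum of 10 and no minimum each gave 42 of these values, which could not differ because a minimum only selects genes. With a pseudocount of 1, which matters little at these counts, all 42 were kept. SLC7A5 lost its RNA call in starved against complete medium, which left 1 member called, with total counts (-0.93), nuclear protein-coding totals (-0.92), DESeq2 size factors (-0.997), protein-coding genes only (-0.99) and TMM over genes past the minimum (-0.94), the last chosen after seeing the data. With nuclear protein-coding totals 0 members were called in footprints (SLC38A2 at -0.97). In knockdown against control, 1 member was called in translation efficiency with total counts (SLC38A1 at -1.15) and 2 with the complete-medium input library in place of the starved knockdown's (SLC38A1 at -1.19, SLC7A1 at -1.02), where the members' median was -0.49 in place of 0.42. That replacement only adds the members' RNA differences, starved over complete medium, to their values. With total counts their footprint median was -0.11 and the translation efficiency of SLC7A11 turned from 0.14 to -0.06. With a count minimum of 10 or none SLC1A4 enters, and the median translation efficiency change in starved against complete medium was 0.12. With no minimum the median gene that translation efficiency levels are set against is also taken over more genes. The members' median levels relative to it were then 0.23, 0.32 and -0.090, in place of -0.15, 0.05 and -0.35.

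Over all genes, calls in RNA, footprints and translation efficiency numbered 361, 251 and 301 for knockdown against control and 296, 416 and 483 for starved against complete medium. They numbered 1062, 747 and 855, and 894, 1000 and 1103, with a minimum of 10, and 1309, 1012 and 1205, and 1142, 1178 and 1392, with none, as more genes of few counts were tested. Footprint calls were 380 with total counts in the first comparison. There the share of calls that were higher moved from 46.3% to 36.0% in RNA, 45.8% to 15.0% in footprints and 43.2% to 18.4% in translation efficiency with total counts, to 56.7% in footprints with TMM over genes past the minimum, and to 28.2% in translation efficiency with the other input. In the second it moved in RNA from 27.7% to 43.4% with total counts, 45.4% with nuclear protein-coding totals and 42.1% with TMM over genes past the minimum, and in footprints from 39.4% to 51.9% with nuclear protein-coding totals. These scalings shifted the median gene by -0.273 in footprints and -0.20 in translation efficiency (total counts, first comparison) and by 0.103 (total counts) and 0.113 (nuclear totals) in RNA and 0.101 (nuclear totals) in footprints in the second.

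No paired analysis was possible because each group has 1 library, so the groups share fewer than 2 replicate numbers and none can be left out. Depth limits SLC1A4 most, with 6 to 26 counts in a library.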
